A study of Mus musculus with 10 samples.

Results

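Uptake of organic anions and cations from blood was followed through 7 transporter genes, Slco1a1, Slco1a4, Slco1b2, Slco2a1, Slco2b1, Slc22a5 and Slc22a7. They were chosen by name, as 7 of the 23055 gene symbols in the count table, with earlier results of these data known. The gene lists set beside them were chosen likewise, so counts against the background of all genes are descriptive. All 7 transporters passed the filter on low counts that left 13687 genes for testing. Poly(A) RNA of mouse liver was sequenced in 6 libraries of WT mice and 4 libraries of mice labelled as Ifrd1 knockouts (KO). Every library, of either genotype, came from liver 12 h after partial hepatectomy, in which surgeons took the left lateral and the median lobe under isoflurane. No unoperated liver was compared. The study asked how gene expression responds in regeneration and what part Ifrd1, a transcriptional co-regulator, has in it. The sources used here do not give the strain, age or sex of the mice, which part of Ifrd1 was knocked out, or in which cells. The labels number the libraries without naming animals. Each was taken as 1 liver, and a p-value therefore reflects how these libraries spread, whatever their source.

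Hepatocytes clear bile acids, bilirubin conjugates, hormones, toxins and many drugs from sinusoidal blood before metabolising them or passing them to bile. Carriers of the SLCO family (organic anion transporting polypeptides, Oatp) take up large amphipathic anions without using the sodium gradient, and carriers of the SLC22 family take up smaller organic anions, cations and carnitine. Expression of these genes in liver is known to depend on hepatocyte transcription factors and on nuclear receptors, and uptake carriers are known to be held low in cholestasis, inflammation and regeneration. The names Oatp1b2, Oatp1a1 and Oatp1a4 refer to the proteins of Slco1b2, Slco1a1 and Slco1a4. In bulk tissue, fewer cells of a type and less RNA per cell cannot be told apart, and the cells in which each transporter was transcribed were not resolved.

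The 3 SLCO1 genes lie in 1 cluster on chromosome 6 that spans 317.4 kb from the start of Slco1b2 to the far end of Slco1a1. Slco1b2 (ENSMUSG00000030236.10) occupies chr6:141629518-141686646 on the plus strand, Slco1a4 (ENSMUSG00000030237.14) occupies chr6:141805440-141856199 on the minus strand and Slco1a1 (ENSMUSG00000041698.11) occupies chr6:141907282-141946962 on the minus strand, all protein coding in GENCODE M21 on GRCm38. The 250 bases upstream of the RefSeq start of each (GRCm38.p6) are shown because these neighbours, which share a locus, had unlike values in the libraries described below. Capitals mark the nuclear receptor half-site AGGTCA, searched on both strands, so that TGACCT is the same motif on the other strand.
Slco1b2, chr6:141629268-141629517, plus strand: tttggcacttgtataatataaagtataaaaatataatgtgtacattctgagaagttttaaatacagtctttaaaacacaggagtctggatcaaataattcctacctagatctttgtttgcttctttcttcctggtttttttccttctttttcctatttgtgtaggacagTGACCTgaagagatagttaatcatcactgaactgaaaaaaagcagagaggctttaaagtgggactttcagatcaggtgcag
Slco1a4, chr6:141856221-141856470, minus strand: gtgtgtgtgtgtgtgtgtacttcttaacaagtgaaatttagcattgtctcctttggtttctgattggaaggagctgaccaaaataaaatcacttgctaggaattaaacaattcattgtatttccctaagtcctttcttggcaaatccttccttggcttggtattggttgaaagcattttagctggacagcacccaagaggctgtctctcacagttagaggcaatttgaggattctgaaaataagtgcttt
Slco1a1, chr6:141946963-141947212, minus strand: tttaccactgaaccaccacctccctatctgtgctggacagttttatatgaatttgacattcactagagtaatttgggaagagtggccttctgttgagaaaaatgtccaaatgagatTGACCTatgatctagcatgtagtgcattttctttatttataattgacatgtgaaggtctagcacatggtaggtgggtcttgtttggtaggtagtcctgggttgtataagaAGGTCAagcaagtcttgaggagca
The Slco1b2 window held TGACCT 81 bases upstream of the start. The Slco1a1 window held AGGTCA 24 bases upstream and TGACCT 134 bases upstream. The Slco1a4 window held no match. Among all 32851 RefSeq promoter windows of this length, 14% held AGGTCA on either strand. Other motifs were searched too and are not marked. The Slco1b2 window held the STAT site TTCNNNGAA 206 bases upstream (7.02% of all windows) and TATAAA 227 and 234 bases upstream (12.4%). The Slco1a1 window held TATAAA on the other strand 99 and 209 bases upstream. In the Slco1a4 window none of them matched. The windows were AT-rich, with a GC content of 33.6% for Slco1b2, 39.2% for Slco1a4 and 40.4% for Slco1a1. A match is a description of letters and does not show that a factor binds there.

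Libraries held between 12306369 and 14339874 counts in WT and between 12674800 and 17096628 in KO. Expression is given in CPM, read counts normalised to the TMM-scaled size of each library. Ifrd1 lay between 40.2 and 81.7 CPM in WT and between 13.0 and 22.6 CPM in KO, and its fall (log2 fold change -1.59, SE 0.23, adjusted p = 0.0258) was called. Adjusted p-values are edgeR's (quasi-likelihood test, Benjamini-Hochberg over all genes) unless another tool is named. The 13 hepatocyte markers tested, Alb and Apoa1 among them, summed to between 60160 and 119270 CPM, so hepatocyte RNA was plentiful in every library. WT replicate 4 stood apart from the other WT libraries, with a mean correlation of log2 CPM of 0.970 with the KO libraries and 0.918 with WT. WT replicates 5 and 6 lay at one end of the second principal component (-44.0 and -47.1) and WT replicate 2 at the other (39.5). WT replicate 2 was also farthest out on the first component (-79.3) and had the lowest mean correlation with KO (0.882). The WT libraries varied more than the KO libraries at 80.6% of genes, and WT replicate 4 lay nearer to the average KO library than to its own group's average at 69.7% of genes.

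Of the 7 transporters, 0 passed the adjusted threshold of 0.05, where edgeR called 1.33% of all genes tested, 0.563% higher and 0.767% lower in KO. At an unadjusted p under 0.05 the count was 2 of 7, Slco1b2 and Slco2a1, both higher in KO, against a background of 26.0% of genes. The KO and WT libraries did not overlap for 1 of 7, Slco1b2, against 6.90% of all genes, 3.61% with KO above WT and 3.29% with KO below. The log2 fold change (KO over WT) was above 0 for 4 of 7, where 48.4% of all genes were, with a median of 0.22 beside -0.02 over all genes tested. Counts over the 7 genes therefore did not stand clear of the background. DESeq2 called 1 of 7 (Slco1b2) where it called 11.9% of genes, limma-voom called 1 of 7 (Slco1b2) at 2.32%, and limma-voom with sample weights called 2 of 7 (Slco1b2 and Slco2a1) at 19.2%. Without WT replicate 4, edgeR called the same 2 genes, at 21.4% of genes tested.

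**Figure D1:**
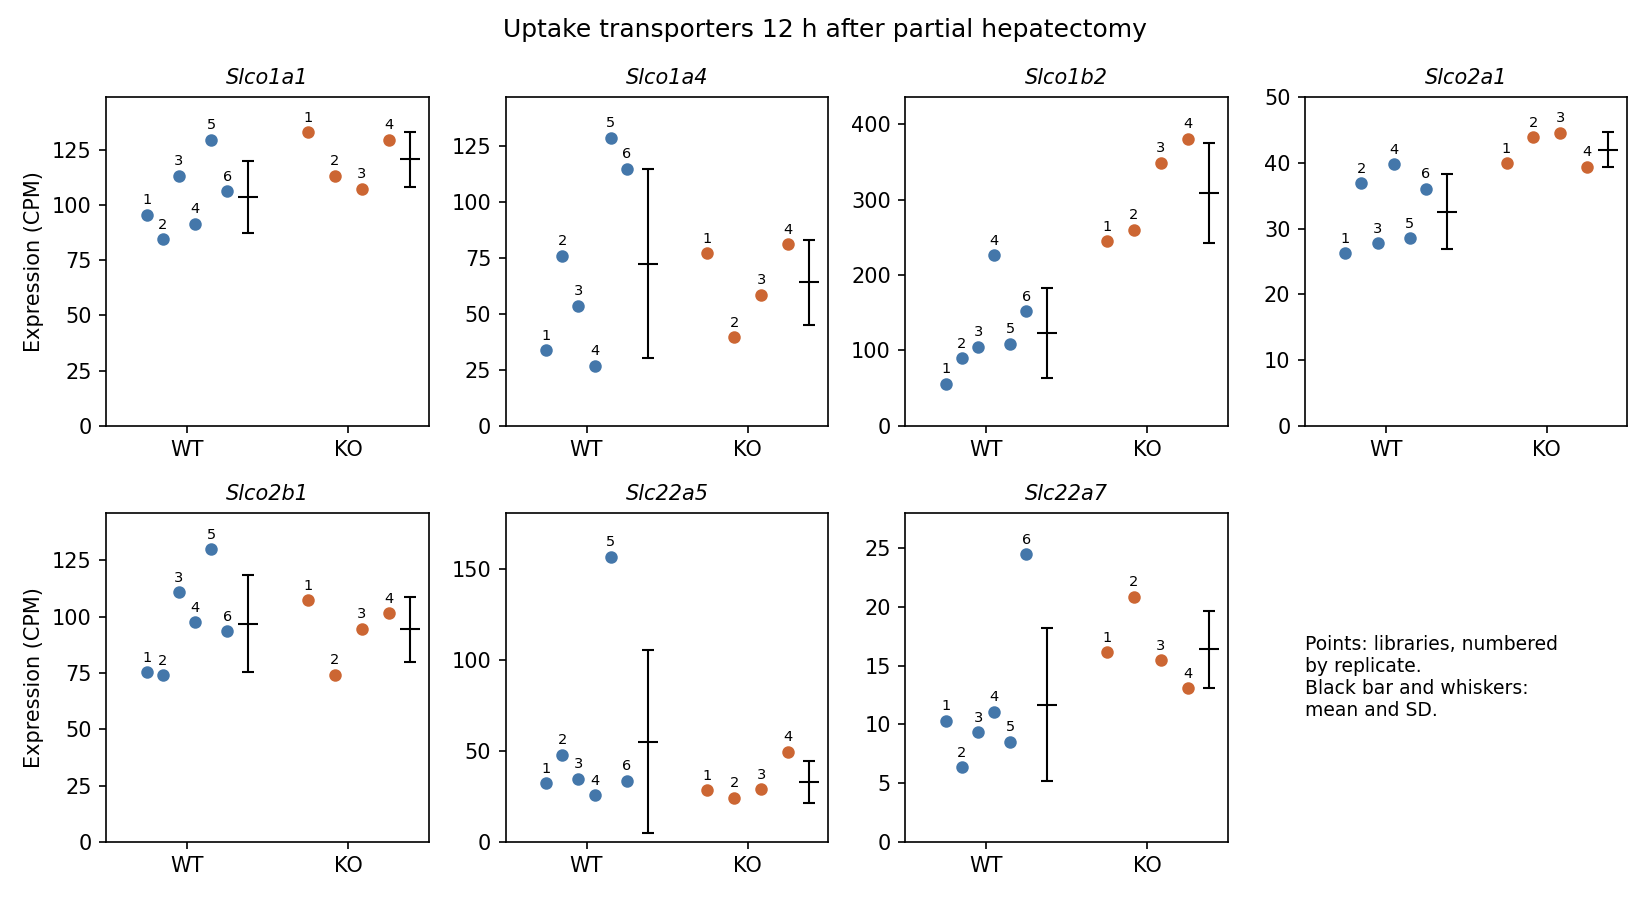
Expression of the 7 transporters in each library, in CPM on linear axes that start at 0. Points are libraries numbered by replicate, 6 WT and 4 KO, and the black bar and whiskers are the mean and SD. Every KO library of Slco1b2 lies above every WT library, with WT replicate 4 (226.7 CPM) just under KO replicate 1 (244.7 CPM), and in the other 6 genes the groups overlap.

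Slco1b2 encodes Oatp1b2, the liver-restricted carrier of the sinusoidal membrane that takes up bile acids, bilirubin conjugates, statins and the toxins phalloidin and microcystin. In WT its level was 55.7 CPM at the lowest (replicate 1), 106.9 at the median and 226.7 at the highest (replicate 4). In KO it was 244.7, 260.4, 349.0 and 381.1 CPM in replicates 1 to 4. Every KO library was above every WT library, though WT replicate 4 lay closer to KO replicate 1 than to WT replicate 6, the next WT library at 152.2 CPM.

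The mean was 123 ± 59.6 CPM (SD, n = 6) in WT and 309 ± 66.6 CPM (SD, n = 4) in KO, a fitted 2.51-fold higher level with a 95% interval from 1.56 to 4.03. The log2 fold change was 1.33 (SE 0.31), and the adjusted p of 0.0546 in edgeR's quasi-likelihood test missed the threshold (unadjusted, 0.00111). The two-sided exact permutation test on log2(CPM + 0.5) gave p = 0.00952, or 0.197 after adjustment over all genes, where the smallest p the design allows is 0.00476. The call turned on the tool and on WT replicate 4: the adjusted p was 0.00274 in DESeq2, 0.0440 in limma-voom, 0.00399 in limma-voom with sample weights and 0.00182 in edgeR without WT replicate 4 (log2 fold change 1.60). In all 19 alternatives the difference kept its sign, with log2 fold changes between 1.18 and 1.60. Counts of 843 to 6128 reads lay behind these values, so counting error was small beside the spread between libraries. No 50-base stretch of its transcripts was shared with another gene.

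**Figure D2:**
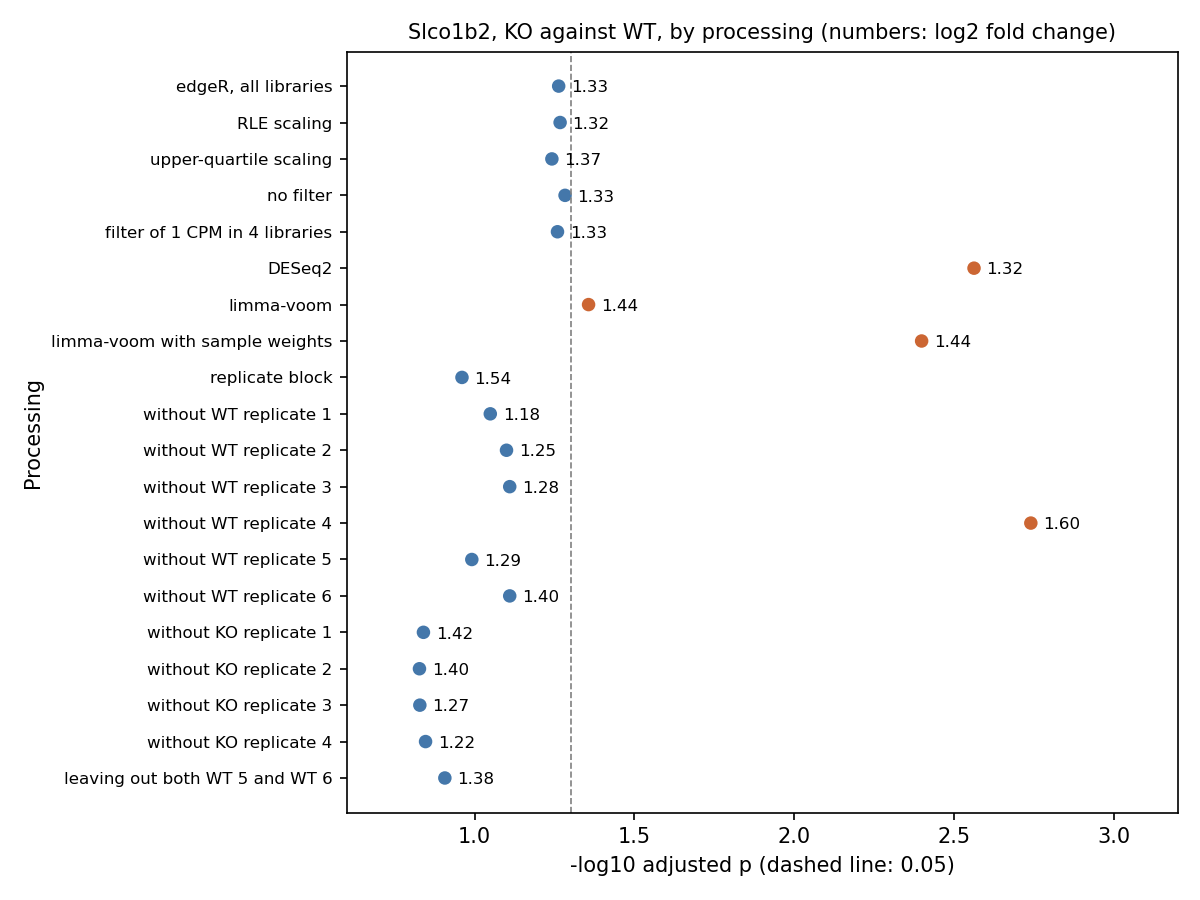
The adjusted p of Slco1b2, KO against WT, under each way of processing, as -log10 on the horizontal axis, with the log2 fold change printed beside each point. The dashed line is the threshold of 0.05 and orange points lie past it. DESeq2, both forms of limma-voom and edgeR without WT replicate 4 pass, and the remaining settings do not, while the log2 fold change stays between 1.18 and 1.60.

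Markers of other cells differed in level across the same libraries. Of all genes tested, 1.33% were called and 48.4% had a fold change above 0. Of the 11 Kupffer cell and macrophage markers tested, 0 were called, and all 11 had a log2 fold change below 0 (median -1.02). The most abundant, Clec4f, a lectin of Kupffer cells, averaged 43.1 ± 33.8 CPM in WT and 15.9 ± 6.15 in KO, and Marco, a scavenger receptor, 27.3 ± 14.8 CPM in WT and 13.0 ± 6.70 in KO. The list's summed level was 124.8, 413.6, 96.3, 70.5, 174.9 and 207.9 CPM in WT replicates 1 to 6. It was 56.6, 87.9, 102.9 and 82.2 CPM in KO replicates 1 to 4. WT replicate 4, the WT library with the highest Slco1b2, was the lowest WT library here. WT replicate 6, next highest in WT for Slco1b2 (152.2 CPM), had a sum below that of WT replicate 2 alone. KO replicate 1 was the lowest KO library for both. Hepatocyte markers summed to between 60160 and 119270 CPM in WT and between 78985 and 88558 CPM in KO, and WT replicate 4 was the lowest of all. Of 5 neutrophil and monocyte markers tested, 0 were called and 4 had a fold change below 0 (median -2.24). Their list summed to between 11.6 and 175.3 CPM in WT, highest in replicate 2, and between 8.68 and 18.3 CPM in KO. No marker of these lists was at 0 in every library. WT replicate 4 was nearer the KO mean for 10 of the 11 Kupffer cell and macrophage markers. It was so for 69.7% of all genes as well, so its place in these lists is not particular to them. The part of cell composition in the Slco1b2 values was not tested.

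The genes most like Slco1b2 across the 10 libraries, by Pearson's r of log2 CPM, were Lipe (r = 0.98), which encodes hormone-sensitive lipase, Prim1 (r = 0.97), a DNA primase subunit, and Dusp12 (r = 0.97), a dual-specificity phosphatase. Among the 6 WT libraries alone the r values were 0.97, 0.97 and 0.95. Such an r describes values that share libraries, depth and the split by genotype; the top values of a whole table are high by selection.

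Slco1a1 encodes Oatp1a1, a sinusoidal carrier of conjugated steroids, bile acids and the dye sulfobromophthalein, and is known as a male-biased gene of mouse liver. Its WT level ran from 84.6 CPM (replicate 2) through a median of 101.1 to 129.7 (replicate 5). The KO libraries were at 133.0, 113.3, 107.4 and 129.7 CPM. The groups overlapped across most of their range, with KO replicates 1 and 4 just above the highest WT library.

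The mean of Slco1a1 was 104 ± 16.4 CPM (SD, n = 6) in WT and 121 ± 12.4 CPM (SD, n = 4) in KO. Its log2 fold change of 0.22 (SE 0.15, adjusted p = 0.371) had a 95% interval from -0.11 to 0.55 that leaves out a change as large as 1.5-fold in either direction. Of all genes tested, 14.9% varied less among the WT libraries, so this was one of the steadier genes of the table: the highest WT library was 1.53 times the lowest, against 4.07 times for Slco1b2. Its nearest genes in pattern were Dusp19 (r = 0.93), 3110009E18Rik (r = 0.92) and Mettl23 (r = 0.89). Only 1.64% of the 50-base stretches of its transcripts occur in another gene, nearly all in Slco1a4.

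Slco1a4 encodes Oatp1a4, which carries cardiac glycosides such as digoxin beside bile acids and is a known target of the pregnane X receptor. WT libraries ranged from 26.7 CPM in replicate 4 through 64.7 at the median to 128.4 in replicate 5, with replicate 6 at 114.7. KO replicates 1 to 4 were at 77.0, 39.4, 58.5 and 80.9 CPM. WT replicates 5 and 6 were above every KO library and WT replicates 1 and 4 were below every one, so the KO values lay inside the WT range.

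The mean of Slco1a4 was 72.2 ± 42.2 CPM (SD, n = 6) in WT and 63.9 ± 19.1 CPM (SD, n = 4) in KO, with a log2 fold change of -0.17 (SE 0.42, adjusted p = 0.828 in edgeR). The 95% interval, from -1.09 to 0.75, still holds changes of over 1.5-fold in either direction. The sign rested on single libraries: without WT replicate 5 the log2 fold change was 0.07, without WT replicates 5 and 6 it was 0.42 (adjusted p = 0.458), a setting chosen after seeing the data. The spread among WT libraries was larger than that of 90.2% of genes tested. Its nearest genes in pattern were Asah2 (r = 0.94), a neutral ceramidase, Hint1 (r = 0.92) and the respiratory complex I subunit Ndufb8 (r = 0.90).

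The 3 clustered genes did not keep a fixed ratio. Slco1b2 was 0.582 to 2.47 times Slco1a1 in WT (median 0.993) and 1.84 to 3.25 times Slco1a1 in KO (median 2.62), on the CPM scale. Only WT replicate 4 (2.47) reached the KO range, since the next WT library was at 1.43. Against Slco1a4 the WT ratios ran from 0.850 to 8.48 (median 1.49) and the KO ratios from 3.18 to 6.61 (median 5.34), with WT replicate 4 again the one WT library not below KO. Slco1a4 was 0.292 to 1.08 times Slco1a1 in WT and 0.348 to 0.624 times in KO, with the KO ratios inside the WT range. Across the 10 libraries the r of log2 CPM was 0.43 between Slco1b2 and Slco1a1, 0.02 between Slco1b2 and Slco1a4 and 0.49 between Slco1a1 and Slco1a4.

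Slco2b1 (ENSMUSG00000030737.17, chr7:99657804-99711340, minus strand) encodes Oatp2b1, a broadly expressed carrier of steroid sulfates and several drugs. Among WT libraries it was 74.0 CPM in replicate 2, 95.6 at the median and 130.1 in replicate 5. The KO values were 107.2, 74.2, 94.7 and 101.7 CPM, within the WT range in every library. The means were 96.9 ± 21.4 CPM (SD, n = 6) and 94.5 ± 14.4 CPM (SD, n = 4), with a log2 fold change of -0.04 (SE 0.18, adjusted p = 0.922 in edgeR) and a 95% interval from -0.44 to 0.36. A difference of 1.5-fold in either direction lay outside this interval, and the sign of the small difference turned under 6 of the 19 alternatives. The gene overlaps the antisense genes Gm15635 and Gm34280, and since the strand setting of the counting is not given, reads of the pair cannot be told apart. Its nearest genes in pattern were Etfbkmt (r = 0.93), Lox (r = 0.93) and Tdo2 (r = 0.91), which encodes hepatic tryptophan dioxygenase.

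Slco2a1 (ENSMUSG00000032548.14, chr9:102988712-103096002, plus strand) encodes the prostaglandin transporter, which carries prostaglandins into cells where they are oxidised. In WT its level was 26.2 CPM in replicate 1, 32.3 at the median and 39.8 in replicate 4. In KO it was 40.0, 43.9, 44.7 and 39.4 CPM. The KO libraries sat within a narrow band near or above the top of the WT range, and WT replicate 4 alone overlapped them, above KO replicate 4.

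The mean of Slco2a1 was 32.6 ± 5.70 CPM (SD, n = 6) in WT and 42.0 ± 2.67 CPM (SD, n = 4) in KO. The log2 fold change of 0.37 (SE 0.15) had an adjusted p of 0.149 in edgeR (unadjusted, 0.0293), and the exact permutation p was 0.0333, or 0.197 after adjustment over all genes. It was called without WT replicate 4 (0.43, adjusted p = 0.0482) and by limma-voom with sample weights (0.43, adjusted p = 0.0341). Of the 16 sinusoidal and vascular endothelial markers tested, 1 was called, Fcgr2b, which rose from 12.9 ± 2.53 CPM (SD, n = 6) to 26.2 ± 7.57 CPM (SD, n = 4). Markers on the other side of 0, named after their values were seen, included Lyve1 (19.5 ± 15.8 CPM in WT, 5.70 ± 0.77 in KO, log2 fold change -1.77, adjusted p = 0.0642), with every KO library below every WT library, and Cdh5 (20.6 ± 11.2 CPM in WT, 10.5 ± 2.31 in KO, log2 fold change -0.98, adjusted p = 0.104). The list summed to between 231.7 and 446.5 CPM in WT and between 282.2 and 435.0 CPM in KO, with 10 of 16 fold changes above 0. The part of endothelial cells in the Slco2a1 values was not tested.

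Slco2a1 was the transporter whose levels tracked Slco1b2 most closely, with r = 0.85 over the 10 libraries and 0.74 over the 6 WT libraries. Its nearest genes in the whole table were Tle2 (r = 0.95), a Groucho-type corepressor, and the pseudogenes Cyp2d38-ps (r = 0.95) and Cyp2d37-ps (r = 0.94), whose reads can be shared with near-identical Cyp2d genes. Of the 13 tested genes of prostaglandin synthesis, reception and breakdown, 0 were called in edgeR, 1 was higher and 1 lower at an unadjusted p under 0.05, and the median log2 fold change was -0.15. The most abundant were Ptges3 (100.01 ± 7.31 CPM in WT, 90.1 ± 17.8 CPM in KO), a cytosolic synthase and chaperone partner, and Hpgd (22.0 ± 10.3 CPM in WT, 41.5 ± 8.20 CPM in KO, log2 fold change 0.92, adjusted p = 0.10), the dehydrogenase that inactivates prostaglandins. Slco2a1 overlaps the antisense gene Gm47468, with the same limit on strand as above.

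Slc22a5 (ENSMUSG00000018900.7, chr11:53864542-53891660, minus strand) encodes Octn2, the sodium-dependent carnitine transporter, which also carries organic cations and supplies the carnitine that moves fatty acids into mitochondria. In WT its level was 25.8 CPM in replicate 4, 34.2 at the median and 157.1 in replicate 5. In KO it was 28.4, 24.3, 29.0 and 49.7 CPM. WT replicate 5 stood far above every other library, where the next highest were KO replicate 4 at 49.7 and WT replicate 2 at 47.9 CPM, and the remaining WT and KO libraries overlapped.

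The mean of Slc22a5 was 55.2 ± 50.4 CPM (SD, n = 6) in WT and 32.8 ± 11.4 CPM (SD, n = 4) in KO, with a log2 fold change of -0.75 (SE 0.50, adjusted p = 0.366 in edgeR) and a 95% interval from -1.85 to 0.35. Without WT replicate 5 the log2 fold change was -0.09 (adjusted p = 0.850), so that 1 library made nearly all of the difference between means. Its spread among WT libraries was larger than that of 90.9% of genes tested. Of the 50-base stretches of its transcripts, 26.3% (818 of 3116) also occur in another gene, 812 of them in Slc22a21, so the counting could split or drop some of its reads.

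Slc22a21 and Slc22a4 follow Slc22a5 on chromosome 11, at chr11:53949965-53980332 and chr11:53983123-54028090, both on the minus strand. Slc22a21 encodes Octn3, a further carnitine transporter, and Slc22a4 encodes Octn1, a carrier of ergothioneine. Slc22a21 was at 2.31, 9.68, 0.382, 0.0680, 8.98 and 3.32 CPM in WT replicates 1 to 6 and at 0.828, 0.539, 1.08 and 0.498 CPM in KO. Its log2 fold change was -2.47 (SE 0.99), with an adjusted p of 0.147. WT replicate 5, where Slc22a5 was highest, was also high for Slc22a21, but WT replicate 2 was as high for Slc22a21 with Slc22a5 at 47.9 CPM. Slc22a4 was at 6.28, 2.50, 1.45, 1.16, 1.21 and 3.79 CPM in WT and at 2.15, 1.62, 2.0 and 1.68 CPM in KO (adjusted p = 0.481), and was low in WT replicate 5.

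**Figure D3:**
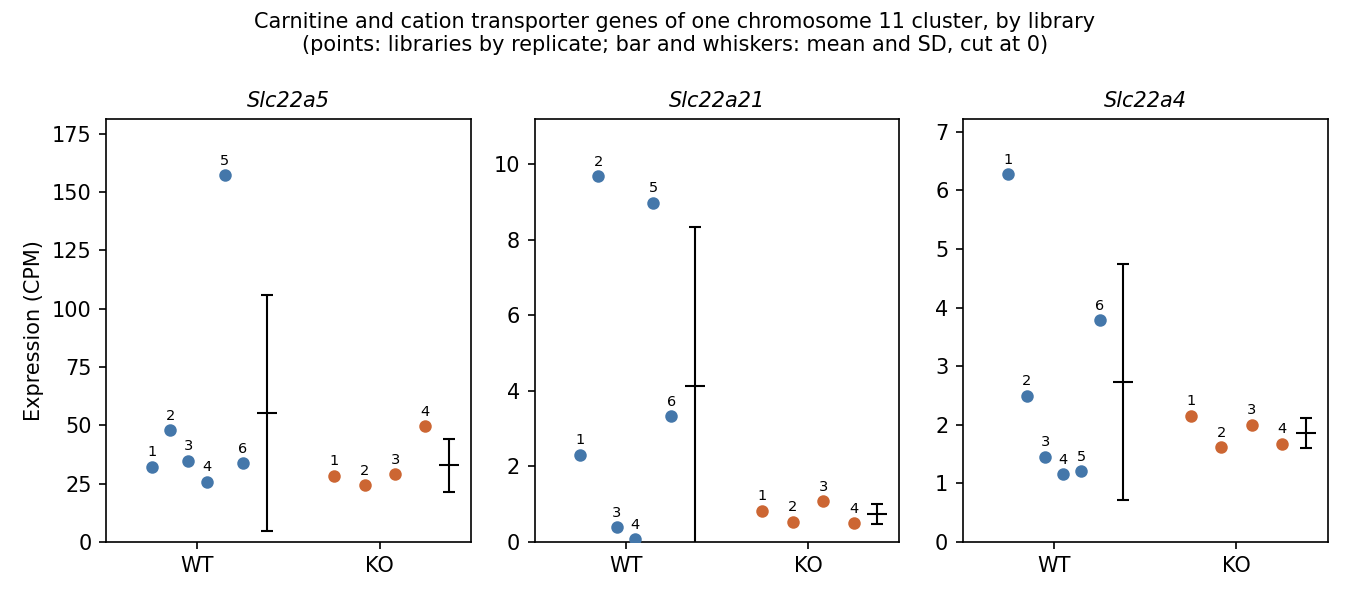
Slc22a5, Slc22a21 and Slc22a4 in each library, in CPM on linear axes that start at 0, with points numbered by replicate and the mean and SD as a black bar and whiskers, cut off at 0. WT replicate 5 is highest for Slc22a5 at 157.1 CPM, is high beside WT replicate 2 for Slc22a21, and is among the lowest libraries for Slc22a4.

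Among 11 tested genes of carnitine synthesis and use, 1 was called in edgeR: Bbox1, the last enzyme of carnitine synthesis, rose from 26.9 ± 6.40 CPM (SD, n = 6) to 53.8 ± 7.57 CPM (SD, n = 4), with a log2 fold change of 1.00 (SE 0.18, adjusted p = 0.0418). It was at 21.1, 24.7, 27.8, 38.4, 21.4 and 28.2 CPM in WT and at 50.8, 52.1, 47.6 and 64.8 CPM in KO, without overlap. The list had 8 fold changes above 0 and 3 below, where 48.4% of all genes were above 0, and a median log2 fold change of 0.61. At an unadjusted p under 0.05, 5 were higher and 1 lower, beside 11.6% higher and 14.4% lower among all genes. Slc22a5 was thus on the other side of 0 from most of these genes, but its own difference was not called. The genes nearest to Slc22a5 in pattern, Ascc3 (r = 0.94), Kansl3 (r = 0.90) and Ltbp1 (r = 0.90), had Spearman rank values of 0.90, 0.60 and 0.73. Ranks give less weight than r to a single far library such as WT replicate 5.

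Slc22a7 (ENSMUSG00000067144.7, chr17:46432183-46438457, minus strand) encodes Oat2, an anion exchanger known to carry nucleotides such as cGMP, dicarboxylates and drugs. The WT values were 6.35 CPM in replicate 2, 9.82 at the median and 24.5 in replicate 6. KO replicates 1 to 4 gave 16.2, 20.9, 15.4 and 13.1 CPM. WT replicates 1 to 5, at no more than 11.1 CPM, were below every KO library, and WT replicate 6 was above every one.

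The mean of Slc22a7 was 11.7 ± 6.49 CPM (SD, n = 6) in WT and 16.4 ± 3.28 CPM (SD, n = 4) in KO, with a log2 fold change of 0.49 (SE 0.32, adjusted p = 0.348 in edgeR) and a 95% interval from -0.20 to 1.18. Without WT replicate 6 the log2 fold change was 0.84 (adjusted p = 0.0777), still not called. It had the fewest reads of the 7, with 84 to 317 a library. Slco2a1 was lower per length, where length is all annotated exons, 13545 bases for Slco2a1 and 2101 for Slc22a7. Its nearest genes in pattern were BC021767 (r = 0.95), Gm19605 (r = 0.93) and the nucleotide sugar transporter gene Slc35d2 (r = 0.92).

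Compared per length, in CPM per kb of exon, the level of Slco1b2 was the highest mean in both groups. In WT the order was Slco1b2 (25.0 ± 12.1), Slco1a1 (19.6 ± 3.11), Slc22a5 (18.0 ± 16.4), Slco2b1 (16.3 ± 3.60), Slco1a4 (11.3 ± 6.57), Slc22a7 (5.56 ± 3.09) and Slco2a1 (2.41 ± 0.42), each mean ± SD over 6 libraries. Neighbours in that order overlapped except the last pair. The last place of Slco2a1, in either group, depends on its length of 13545 bases over all annotated exons. The transcripts in use were not resolved, and a shorter length would raise its level. The place of Slc22a5 rested on WT replicate 5, at 51.2 CPM per kb: without it, a setting chosen after seeing the data, the WT mean was 11.35 ± 2.64 (SD, n = 5), below Slco2b1 at 15.15 ± 2.62, and Slc22a5 was above Slco2b1 in 2 of 6 WT libraries. In KO, Slco1b2 was at 62.7 ± 13.5 CPM per kb (SD, n = 4), followed by Slco1a1 (22.9 ± 2.36), Slco2b1 (15.9 ± 2.42), Slc22a5 (10.7 ± 3.72), Slco1a4 (9.97 ± 2.97), Slc22a7 (7.80 ± 1.56) and Slco2a1 (3.10 ± 0.20). There Slco1b2 stood clear of Slco1a1 in 4 of 4 libraries, Slco1a1 stood clear of Slco2b1, and Slc22a7 of Slco2a1, while the pairs between overlapped.

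Added up in CPM, Slco1b2 made 15.8% to 43.7% of the 7-gene sum in WT (median 22.3%) and 37.9% to 49.96% in KO (median 46.5%). WT replicate 4, at 43.7%, was the one WT library within the KO range, the next being WT replicate 6 at 27.1%. The other 6 genes summed to between 273 and 582 CPM in WT (median 338) and between 316 and 415 CPM in KO (median 376). The KO sums of these 6 lay within the WT range. The SD of log2 CPM was larger in WT for 7 of 7 transporters, beside the 80.6% of all genes given above, and WT replicate 4 was nearer the KO mean for 4 of 7 (Slco1a4, Slco1b2, Slco2a1 and Slc22a5), beside 69.7%.

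Other carriers of the same families gave 0 calls in edgeR, where 1.33% of all genes tested were called. Of the other SLC22 genes, 10 were tested, 8 with a fold change above 0, beside 48.4% of all genes. At an unadjusted p under 0.05, 3 were higher and 1 lower, beside 11.6% and 14.4% of all genes. WT replicate 4 was nearer the KO mean for 9 of the 10, beside 69.7% of all genes. Slc22a30 averaged 38.6 ± 29.2 CPM in WT and 91.2 ± 20.8 in KO (log2 fold change 1.24, adjusted p = 0.0943); WT replicate 4 was at 97.9 CPM and the other WT libraries at 22.7 to 30.4 CPM. Slco3a1, which averaged 3.65 ± 0.68 CPM in WT and 3.08 in KO, was the only further SLCO gene of 10 listed to pass the filter.

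Among 11 other carriers of bile acids, cations, nucleosides and anions in liver, 0 were called in edgeR, where 1.33% of all genes were. At an unadjusted p under 0.05, 4 were higher and 2 lower, beside 11.6% and 14.4% of all genes. Slc10a1, the sodium-dependent bile acid carrier Ntcp, averaged 107 ± 32.4 CPM in WT and 119 ± 12.0 in KO (log2 fold change 0.15, adjusted p = 0.680). Slc47a1, the proton-coupled cation exporter Mate1, averaged 42.3 ± 29.95 CPM in WT and 104 ± 15.2 in KO (log2 fold change 1.29, adjusted p = 0.0943), with WT replicate 4 at 95.2 CPM. Slc10a2, the apical bile acid carrier known from ileum and bile duct cells, averaged 46.9 ± 26.0 CPM in WT and 14.4 ± 6.47 in KO (log2 fold change -1.71, adjusted p = 0.0991), with WT replicate 4 at 6.33 CPM. In both, WT replicate 4 lay nearer to the KO libraries than any other WT library did, as it did for Slco1b2. The 7 cholangiocyte markers tested had 5 fold changes below 0 (median -0.52), and their list summed to between 159.5 and 517.8 CPM in WT, with replicate 4 at 167.3, and between 154.3 and 195.2 CPM in KO. The part of bile duct cells in the Slc10a2 values was not tested.

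**Figure D4:**
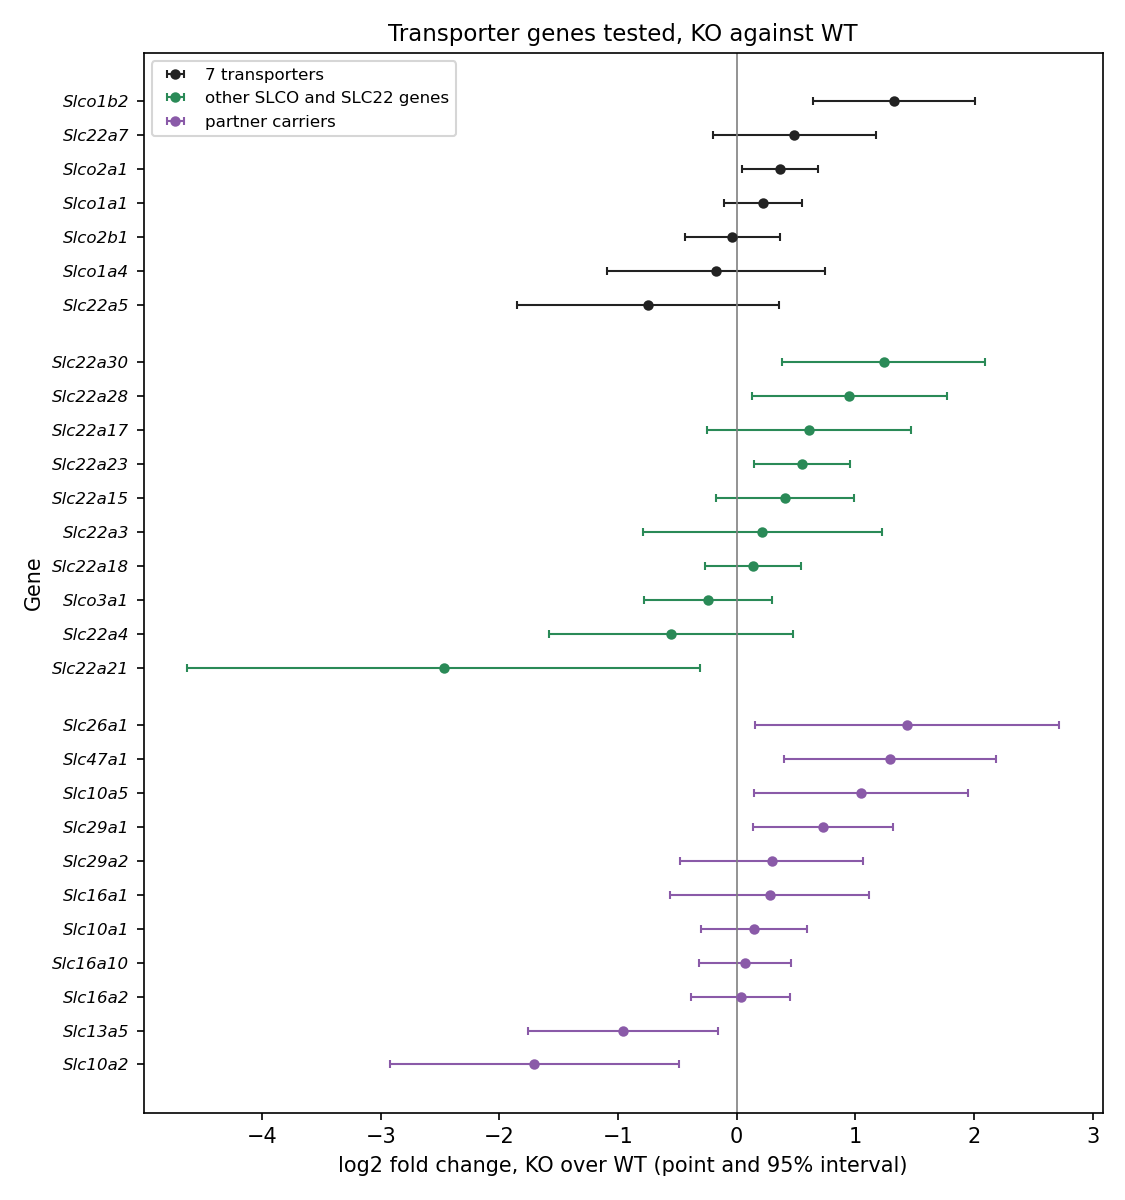
Log2 fold change of KO over WT with its 95% interval for the 7 transporters (black), 10 of the 11 other SLCO and SLC22 genes tested (green) and partner carriers (purple), sorted within each group. Slco1b2 at 1.33 is the one transporter of the 7 that lies far from 0 with an interval clear of it, Slco2a1 at 0.37 has an interval that just clears 0, and Slc10a1 lies close to 0.

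Export genes and regulators were read beside uptake. Of 12 tested basolateral and canalicular exporters, 2 were called in edgeR, where 1.33% of all genes were (0.767% lower), and both fell in KO: Slc51b, which encodes the beta chain of the Ost bile acid exporter, from 30.3 ± 16.5 CPM (SD, n = 6) to 0.651 ± 0.42 CPM (SD, n = 4), and Abcb1a, a P-glycoprotein gene, from 10.7 ± 5.90 CPM to 0.978 ± 0.16 CPM. WT replicate 4 was at 0.408 CPM for Slc51b and at 0.749 CPM for Abcb1a, level with the KO libraries, where the other WT libraries were at 28.4 CPM or more for Slc51b and at 8.39 CPM or more for Abcb1a. The list had 9 of 12 fold changes below 0 and a median of -0.31.

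Of 26 tested regulators of uptake carriers, 2 were called in edgeR, both higher in KO, where 1.33% of all genes were. At an unadjusted p under 0.05, 13 were higher and 4 lower, beside 11.6% and 14.4% of all genes, and the median log2 fold change was 0.42. Among them Stat5a, a transducer of growth hormone and cytokine signals, rose from 6.77 ± 1.09 CPM to 11.6 ± 1.17 CPM, a log2 fold change of 0.78 (SE 0.17, adjusted p = 0.0486). Of the 26, 20 had a fold change above 0 and 6 below, where 48.4% of all genes were above 0. The regulators that follow were chosen after their values were seen. Hnf4a averaged 310 ± 93.7 CPM in WT and 278 ± 36.4 in KO (adjusted p = 0.695). Nr1i2, the pregnane X receptor, averaged 159 ± 67.3 CPM in WT and 57.1 ± 11.7 in KO (log2 fold change -1.48, adjusted p = 0.0510), just short of a call. Nr1i3, the constitutive androstane receptor, went the other way, with 73.9 ± 73.6 CPM in WT and 234 ± 37.9 in KO (log2 fold change 1.66, adjusted p = 0.151). So did Nr1h4, with 83.6 ± 92.6 CPM in WT and 244 ± 24.1 in KO (log2 fold change 1.55, adjusted p = 0.137). WT replicate 4 was at 66.1 CPM for Nr1i2, inside the KO range of 41.1 to 69.2 CPM, and the other WT libraries were at 103 CPM or more. For Nr1i3 and Nr1h4, WT replicate 4 was at 209 and 266 CPM.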

How the data were processed

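Whole-number read counts per gene symbol, 1 column per library, were used as the authors deposited them. The tools named in the submitters' processing notes are STAR, HTSeq and DESeq2, and the build is mm10. For their versions and roles, the annotation and the strand setting, nothing is given in the sources used here. Per the labels' protocols, RNA was extracted with TRIzol, enriched on oligo(dT) and made into libraries with NEBNext Ultra. Nor is it said how reads matching several genes were counted, which bears on Slc22a5. The 1 row that names no gene held 0.00401% to 0.00941% of counts and was left out. No column was left out.

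Genes were tested with edgeR 4.0.16 in R 4.3.3 (quasi-likelihood, TMM scaling, filterByExpr, robust), KO against WT over 10 libraries with no covariate. Genes were called under a Benjamini-Hochberg adjusted p of 0.05. The 13687 genes tested held 99.84% of counts. Intervals are 95%. SE is the size of the log2 fold change over the square root of F. Log2 CPM used a prior count of 2. Exact permutation tests were two-sided over 210 choices of 4 of 10 libraries, with a pseudocount of 0.5. Code was tested on simulated data. Replicates of a group differed beyond sampling noise (chi-square per degree of freedom 20.8 to 169), so none was counted as a copy.

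Symbols were matched to GENCODE M21 on GRCm38 (96.6% of rows found). CPM per kb used the bases of all annotated exons of a gene. Promoters are RefSeq's, with an entry for 6 of the 7 transporters.

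The members and lists were chosen with earlier results of these data known. Named genes are the 7 transporters, Ifrd1, the 3 genes with the highest r with each transporter, called members of each list (or its 2 most abundant where none was called), and tested members of the SLCO, SLC22 and partner lists. Some genes that this rule names are not reported here. As alternatives, scaling was by RLE or upper quartile, the filter was dropped or set at 1 CPM in at least 4 libraries, the tool was DESeq2 1.42.0 or limma-voom (limma 3.58.1, also with sample weights), replicate numbers were a block, or 1 library was left out.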

Additional observations from a re-analysis of the deposited data

Results flagged for a closer look

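Among the 14 groups examined (7 transporters in WT and in KO), 2 held a library set far apart from the rest of its group. Chance gives about 1 in 20 (5%) where values are normally distributed, which was not tested for these CPM values. Slc22a5 in WT replicate 5 was at 157.1 CPM, while the next WT library was at 47.9 CPM and the lowest at 25.8 CPM, a gap of 0.831 of the group's range, past Dixon's 95% limit for 6 values. Slc22a7 in WT replicate 6 was at 24.5 CPM, while the next WT library was at 11.1 CPM and the lowest at 6.35 CPM, a gap of 0.739 of the range. In log2 CPM these 3 values were 4.62, 3.49 and 2.70, less far apart at the top. Groups were screened in CPM only, so both flags hold for that scale. Neither library was apart for the other gene: WT replicate 5 was at 8.55 CPM for Slc22a7 and WT replicate 6 at 33.6 CPM for Slc22a5.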

How the results depend on the processing

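All 7 transporters were fitted under 19 alternatives, 1 of them (leaving out WT replicates 5 and 6 together) chosen after seeing the data. Slco1a1, Slco1b2, Slco2a1, Slc22a5 and Slc22a7 kept their sign in all 19, and the cause of the changes below was not tested. Genes called over the whole table numbered 182, and 1618 in DESeq2, 318 in limma-voom, 2632 in limma-voom with sample weights, 1 with the replicate block, 4 without WT replicates 5 and 6, and 0 to 2893 leaving out 1 library each. The count was 0 without KO replicate 1, 2 or 3 (2729, 2680 and 2740 genes at an unadjusted p under 0.05), 2 without WT replicate 1 or 5 and 2 without KO replicate 4, 10 without WT replicate 3, 20 without WT replicate 6, 55 without WT replicate 2 and 2893 without WT replicate 4.

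Slco1b2 passed at a log2 fold change of 1.32 in DESeq2, 1.44 in limma-voom and 1.44 in limma-voom with sample weights. Leaving out 1 library gave 1.18 to 1.60, called without WT replicate 4 alone. Slco2a1 passed at 0.43 in limma-voom with sample weights. Leaving out 1 library gave 0.31 to 0.43, called without WT replicate 4 alone. The sign of Slco2b1 turned at upper-quartile scaling (0.0033), with the replicate block (0.087), without WT replicates 5 and 6 (0.075), and over a range of -0.11 to 0.064 leaving out 1 library (0.0047 without WT replicate 3, 0.064 without WT replicate 5, 0.064 without KO replicate 2). The sign of Slco1a4 turned with the replicate block (0.50), without WT replicates 5 and 6 (0.42), and over a range of -0.34 to 0.070 leaving out 1 library (0.070 without WT replicate 5, 0.0053 without WT replicate 6, 0.0025 without KO replicate 2). WT replicates 5 and 6 have no KO library of their number, so they added no contrast to the fold changes with the replicate block. That setting and the fit without WT replicates 5 and 6 are therefore not independent of each other. At a pseudocount of 2 the exact permutation p of Slco1a4 was 0.995, with the opposite sign.

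Between same-numbered WT and KO libraries the correlations of their deviations were 0.179, 0.069, -0.029 and -0.021. Of the 4 KO libraries, 2 correlated best with the WT library of their own number. With 4 pairs these values cannot tell whether same-numbered libraries belong together. With the replicate block, Slco1b2 was at 1.54 (adjusted p = 0.110). Slc22a7 rested on the fewest reads, 84 to 317 a library.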

Other observations

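Genes known as targets of the pregnane X receptor, the constitutive androstane receptor and Nrf2, the first of which is known to act on Slco1a4 as well, had 22 members tested and 2 called in edgeR, both lower in KO, where 1.33% of all genes were called and 0.767% were lower. Srxn1, which encodes the antioxidant enzyme sulfiredoxin, fell from 398 ± 190 CPM (SD, n = 6) to 65.1 ± 17.3 CPM (SD, n = 4), with a log2 fold change of -2.61 (adjusted p = 0.0441). Por, the reductase that passes electrons to cytochrome P450 enzymes, fell from 450 ± 234 CPM to 92.4 ± 21.3 CPM, with a log2 fold change of -2.29 (adjusted p = 0.0495). In the list 18 of 22 fold changes were below 0, with a median of -0.90, and WT replicate 4 was nearer to the KO mean for 19 of 22, beside 69.7% of all genes.

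Of 21 tested genes known as male-biased in mouse liver, a class that includes Slco1a1, 1 was called in edgeR: Hsd3b5, a hydroxysteroid dehydrogenase, rose from 1.43 ± 1.08 CPM (SD, n = 6) to 7.73 ± 2.34 CPM (SD, n = 4), and the list's median log2 fold change was 0.08. The median does not show the spread among WT libraries, whose list sums ran from 5541 to 21315 CPM, beside 12593 to 14135 CPM in KO. Mup11 (11.8 CPM) and Mup7 (79.0 CPM), picked after their values were seen, were lowest of all libraries in WT replicate 2. So was each other tested gene of the list except Hsd3b5, Mup21, Susd4 and Ugt2b1, with Mup12 at 8.47 CPM and Cyp4a12a at 34.5 CPM. Slco1a1 was lowest in that library too, at 84.6 CPM. Hsd3b5, at 1.66 CPM in WT replicate 2, was inside the range of the other WT libraries. The cause was not tested. Of 5 tested genes known as female-biased, 1 was called: Cyp17a1, the steroid hydroxylase and lyase, rose from 7.63 ± 3.33 CPM to 21.1 ± 5.75 CPM, and the list's median was 0.01. In WT replicate 2, Cux2 (22.6 CPM), Acot3 (18.8 CPM), Cyp17a1 (12.5 CPM) and Abcd2 (4.01 CPM) had their highest WT value. Fmo2 (5.67 CPM) did not. The cause of this was not tested either. Over all genes tested, 1.33% were called and 0.563% were called higher, beside 1 of 21 and 1 of 5 in these lists. Among the hepatocyte markers, Tat, tyrosine aminotransferase, was called and fell from 3065 ± 1067 CPM to 1035 ± 322 CPM. The 2 tested lymphocyte and plasma cell markers were not called. With the untested markers counted in, that list summed to 237.8 CPM in WT replicate 2 and to between 4.36 and 10.3 CPM in each of the other libraries.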
